A study of Mus musculus with 31 samples.

Results

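The Nrl transgene was examined in retinas that lack a functional Rorb gene, at postnatal day 28 (P28), by comparing the 4 samples labelled P28 Rorb-/-;CrxpNrl with the 4 samples labelled P28 Rorb-/-. These 8 samples were chosen by their labels alone, out of 31 mouse retina samples in 8 groups (+/+, Rorb-/-, +/+;CrxpNrl and Rorb-/-;CrxpNrl, each at P14 and P28). Both groups carry the Rorb-/- genotype, and the transgenic group also carries CrxpNrl, a transgene in which the Crx promoter drives Nrl. Each sample was the 2 retinas of 1 mouse, so the 4 replicates of a group are 4 mice, and 5 micrograms of total RNA was labelled for an Affymetrix array. Every group has 4 mice except P28 +/+;CrxpNrl, which has 3. Values are log2 signals after robust multi-array averaging (RMA), 1 value per gene. A difference is always transgenic minus non-transgenic, so that 1 on this scale is 2-fold and a positive value is higher with the transgene. Because each array reads RNA from a whole retina, fewer cells of a type and less RNA per cell cannot be told apart.

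Photoreceptors of the mouse retina are mostly rods, which serve dim light, with a minority of cones, which serve daylight and colour. NRL, a leucine zipper transcription factor, directs photoreceptor precursors to the rod fate, and precursors without it become cones that express short-wavelength opsin. RORB is a nuclear receptor that acts upstream of Nrl, and CRX is a homeobox protein active in rods and cones, so a Crx promoter places Nrl in photoreceptor precursors of both kinds.

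The 31 arrays had medians between 5.84 and 5.91 and brightest probe sets between 14.12 and 14.34, and their lower quartiles lay at 3.98 to 4.05. A fall from a level near the top, or to a level near the lower quartile, is therefore a lower bound. Of 18193 genes, 258 (1.42%) differed at least 2-fold at an adjusted p under 0.05 in limma with Benjamini-Hochberg adjustment, 47 higher (0.258%) and 211 lower (1.16%) with the transgene. At any fold, 3493 genes (19.2%) passed, of which 2134 (11.7%) were higher and 1359 (7.47%) lower, and the median difference of all genes was 0.01. The 4 mice of each group lay entirely above those of the other for 1554 genes (8.54%) in the higher direction and 1199 (6.59%) in the lower. Counts of list members below are at an adjusted p under 0.05 and any fold, and are to be read against 11.7% and 7.47%.

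Nrl itself read 9.74, 8.71, 9.72 and 9.97 in the non-transgenic mice (replicates 1 to 4) and 11.63, 11.86, 9.39 and 10.44 in the transgenic mice. Transgenic replicates 1, 2 and 4 lay above all 4 non-transgenic mice, and replicate 3 lay within their range. The difference was 1.30 ± 0.40 (SE, n = 4 per group, limma adjusted p = 0.0206). Each SE, here and below, uses a spread pooled over all 8 groups. The transgenic mean of 10.83 stayed under the 13.26 ± 0.12 (SD, n = 4) of P28 +/+ mice. The call was lost when transgenic replicate 1 or 2 was left out (adjusted p = 0.076 and 0.107) and with only the 8 compared arrays in the fit (adjusted p = 0.142). It was also lost with array weights, which gave transgenic replicates 1 and 2 weights of 0.332 and 0.442. Whether this probe set reads the transgene's transcript is not given in the sources used here, and Nrl differed by -0.04 ± 0.43 between P28 +/+;CrxpNrl and P28 +/+ mice. Rorb read 9.66, 9.55, 9.98 and 9.09 without the transgene and 8.15, 8.58, 8.27 and 8.27 with it. The groups did not overlap, and Rorb fell by 1.25 ± 0.19 (adjusted p = 2.36e-05). Which exons of Rorb are missing is not in the labels, so this signal is no check of the null genotype.

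Cone genes fell in all 4 transgenic mice. Of 10 measured genes of the cone phototransduction list, 9 were lower and 0 higher, with a median difference of -3.47, and in all 10 the transgenic mice lay below every non-transgenic mouse. Opn1mw, the medium-wavelength cone opsin, read 12.41, 12.59, 12.42 and 12.49 without the transgene and 5.28, 4.99, 5.00 and 5.17 with it. This was the largest fall of all named genes, by 7.37 ± 0.25 (adjusted p = 1.63e-18), and the 4 transgenic mice were within 0.29 of each other. Opn1sw, the short-wavelength cone opsin, read 13.81, 13.73, 13.46 and 13.52 without the transgene and 8.06, 7.47, 6.42 and 5.74 with it. It fell by 6.71 ± 0.56 (adjusted p = 6.28e-10), but the transgenic mice spanned 2.32, with replicate 1 highest and replicate 4 lowest. Arr3, the cone arrestin, read 9.82, 9.04, 8.09 and 8.0 in the transgenic mice against 13.01 to 13.35 without the transgene, again with replicate 1 highest. Gnat2, the cone transducin alpha subunit, read between 9.76 and 10.02 in the 4 transgenic mice against 13.20 to 13.35 without the transgene, a fall of 3.40 ± 0.19 (adjusted p = 2.15e-13). Among the subunits of the cone phosphodiesterase, Pde6h fell by 4.43 ± 0.49 and Pde6c by 3.54 ± 0.27. The channel subunit Cngb3 fell by 2.60 ± 0.22 and the transducin gamma subunit Gngt2 by 2.56 ± 0.21. Slc24a2, the cone sodium-calcium exchanger, was the 1 member not called (-0.52 ± 0.23, adjusted p = 0.126). Cnga3 was not analysed here.

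**Figure D1:**
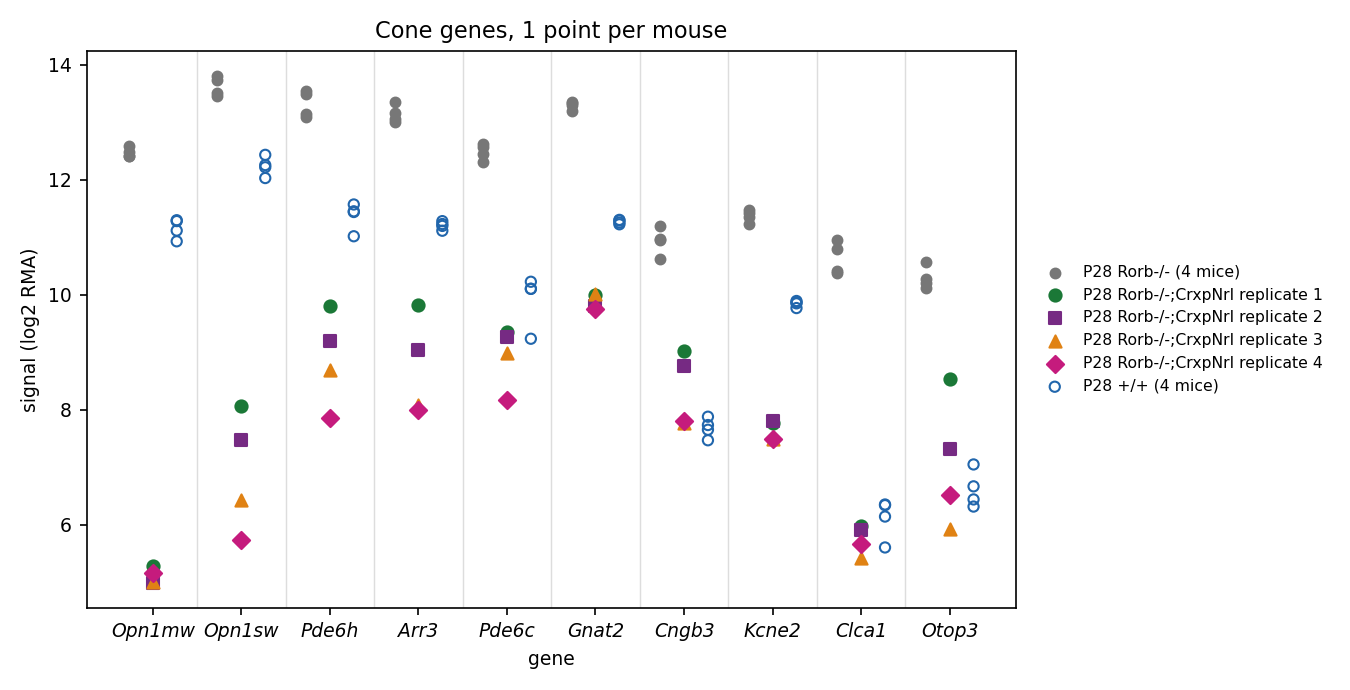
Signal (log2 RMA) of 10 cone genes in each P28 mouse: grey points are Rorb-/- mice, filled coloured symbols are the 4 transgenic Rorb-/- replicates and open circles are +/+ mice. In each gene the transgenic mice lie below the grey points, tightly for Opn1mw (4.99 to 5.28) and widely for Opn1sw (5.74 to 8.06).

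The level reached was not the same for each cone gene when set beside P28 +/+ mice. Opn1mw (5.11 ± 0.14, SD, n = 4) and Opn1sw (6.92 ± 1.04) lay under the +/+ means of 11.16 and 12.24, and Arr3 (8.74 ± 0.86), Pde6h (8.89 ± 0.82) and Gnat2 (9.90 ± 0.13) lay under +/+ means of 11.21, 11.37 and 11.27. Cngb3 at 8.34 ± 0.65 lay above its +/+ mean of 7.68, and Gngt2 at 5.30 ± 0.61 lay near its +/+ mean of 5.33. The mean over the 10 cone phototransduction genes was 8.70, 8.32, 7.97 and 7.68 in transgenic replicates 1 to 4. The same mean was 11.71 to 11.93 in the non-transgenic mice and 9.75 to 9.98 in +/+ mice, and these 3 ranges did not overlap.

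Other cone-enriched genes fell as well, 9 of 10 measured (median -2.22), and for 9 the groups did not overlap. Clca1, named for calcium-activated chloride channels, fell by 4.89 ± 0.22, and its other probe set fell by 0.65. Kcne2, a potassium channel subunit, read 7.77, 7.80, 7.5 and 7.48 against 11.24 to 11.47 and fell by 3.73 ± 0.10 (adjusted p = 5.7e-21). Otop3, a proton channel, read 8.53, 7.32, 5.92 and 6.51 against 10.12 to 10.58, a fall of 3.22 ± 0.31 with a wide spread between mice. The glycerol phosphate acyltransferase Gpat3 fell by 3.24 ± 0.17. Slco1a5, Fabp7 and Tph1, outside these lists, were also among the 10 largest falls with no overlap between groups. Slco1a5, a solute carrier of organic anions, fell by 4.06 ± 0.14 to 3.96, close to the arrays' lower quartile and to the +/+ level of 3.76, while its other probe set differed by -0.33. Fabp7, a brain fatty acid binding protein, fell by 3.90 ± 0.47, with transgenic mice at 7.03, 6.18, 3.46 and 4.64. Tph1, an enzyme of serotonin and melatonin synthesis, fell by 3.58 ± 0.23 to 4.23. Crxos, a homeobox gene next to Crx, fell by 3.38 ± 0.26.

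Rod phototransduction genes moved in both directions and differed widely between the transgenic mice. Of 13 measured genes, 5 were higher and 3 lower (median 0.53), and only Pde6b had transgenic mice all above the non-transgenic ones. Pde6b, a catalytic subunit of the rod enzyme that breaks down cyclic GMP, read 8.34, 8.78, 8.44 and 8.77 without the transgene and 12.16, 11.998, 9.14 and 9.76 with it. It rose by 2.18 ± 0.54 (adjusted p = 0.00379). Replicates 1 and 2 were the high mice and nearest to the +/+ mean of 13.19, while replicate 3 was only just above the highest non-transgenic mouse. Cnga1, which forms the cation channel of rods that cyclic GMP opens, read 7.84, 7.57, 7.72 and 8.38 without the transgene and 10.87, 10.93, 8.13 and 9.0 with it. It rose by 1.85 ± 0.44 (adjusted p = 0.00264), although replicate 3 lay within the non-transgenic range. Slc24a1, the rod sodium-calcium exchanger, read 11.19, 10.85, 8.36 and 9.37 with the transgene against 8.21 to 8.51, a rise of 1.62 ± 0.37. Cngb1, the partner subunit of Cnga1, rose by 1.30 ± 0.33, and Guca1b, a guanylate cyclase activator, by 1.23 ± 0.36. Gnat1, the rod transducin alpha subunit, read 13.66, 13.48, 11.63 and 12.38 with the transgene against 11.33 to 11.65. Its difference of 1.31 ± 0.51 missed the threshold (adjusted p = 0.0711).

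The 3 rod genes called lower were Pde6g, Gngt1 and Grk1, and in each of them the mice disagreed. Pde6g, the inhibitory subunit of the rod phosphodiesterase, read 12.51, 12.48, 12.60 and 12.63 without the transgene and 12.92, 12.43, 10.36 and 11.05 with it. Replicate 1 lay above every non-transgenic mouse and the other 3 lay below, and the mean fell by 0.86 ± 0.28 (adjusted p = 0.0309). Gngt1, the rod transducin gamma subunit, read 12.54, 11.63, 10.07 and 10.72 against 12.09 to 12.31 and fell by 0.96 ± 0.26. Grk1, a photoreceptor opsin kinase, read 7.20, 5.91, 5.08 and 6.79 against 7.02 to 8.01 and fell by 1.31 ± 0.44. Pde6a, the alpha subunit of the phosphodiesterase, read 9.92, 9.11, 6.56 and 7.5 against 7.53 to 8.03 (0.49 ± 0.40, adjusted p = 0.477). For Pde6a, replicates 1 and 2 lay above every non-transgenic mouse and replicates 3 and 4 below. Recoverin (Rcvrn), at 13.21, 13.03, 10.84 and 11.71 against 12.42 to 12.79, divided in the same way (-0.43 ± 0.27, adjusted p = 0.309).

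**Figure D2:**
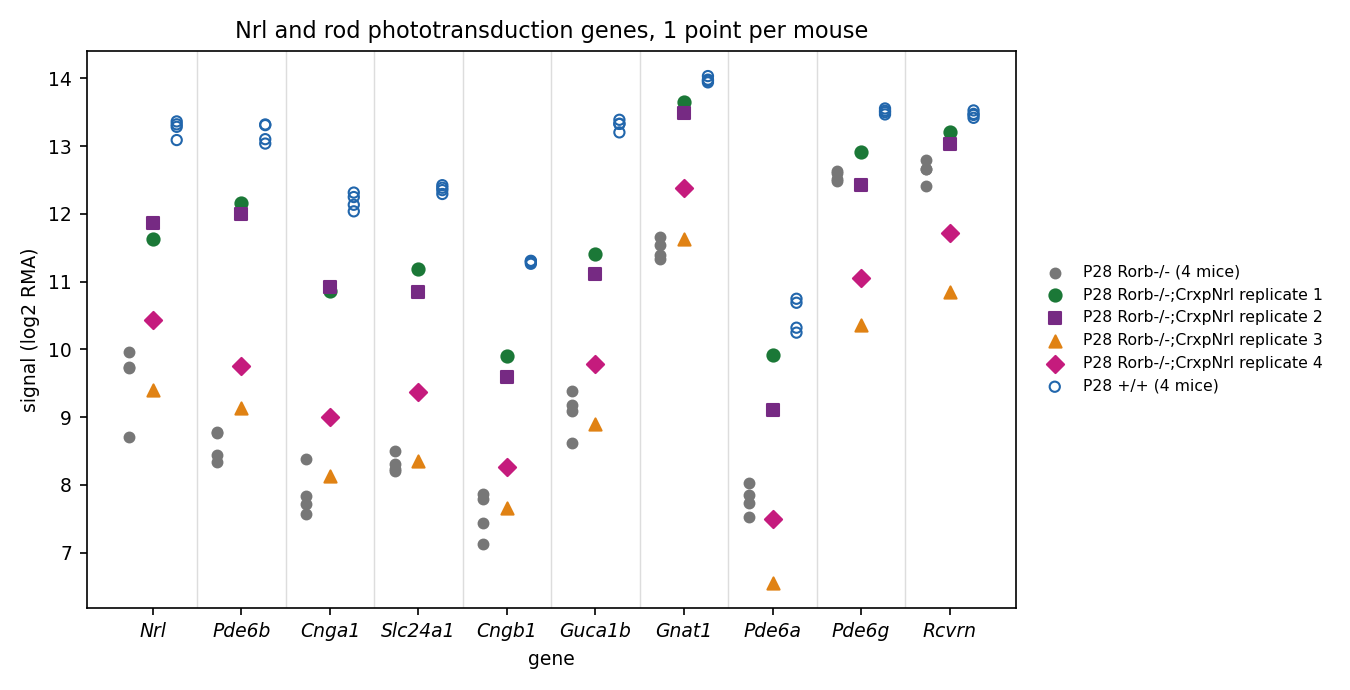
Signal (log2 RMA) of Nrl and 9 rod phototransduction genes in each P28 mouse, with symbols as in the plot of cone genes (grey, Rorb-/-; coloured, transgenic Rorb-/- replicates; open circles, +/+). Transgenic replicates 1 and 2 lie above the Rorb-/- mice in most of these genes, while replicate 3 lies lowest of the 4, as for Pde6a at 6.56 against 9.92 in replicate 1.

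All 8 calls in the rod phototransduction list were lost with only the 8 compared arrays in the fit (Pde6b adjusted p = 0.0541, Cnga1 0.071, Slc24a1 0.0828). With all arrays and 1 variance weight per group, 5 of the 13 genes were higher and 2 lower. That weight (0.616 for the transgenic group) is common to all genes, so it cannot follow a spread that is wider in rod genes. Without a trend in the prior variance, 5 were higher and 3 lower. Without transgenic replicate 3, 7 genes were higher and 0 lower, with a median of 1.06, and without replicate 1, 4 were higher and 5 lower, with a median of 0.22. The other rod-enriched list had 3 genes higher and 2 lower of 11. Kcnj14, an inward rectifier potassium channel, rose by 1.73 ± 0.39, Reep6, a membrane-shaping protein of rods, by 1.42 ± 0.29, and Susd3 by 1.18 ± 0.29 (0.27 in its other probe set). Kcnj14 read 9.26, 9.01, 6.97 and 7.61 against 6.06 to 7.04. The mean of vitronectin (Vtn) fell by 1.0 ± 0.34, but the mice disagreed (SD 1.27, against 0.17 without the transgene). Replicate 1 at 11.79 lay above the non-transgenic mean of 11.39, and the other transgenic mice lay below it. The Vtn call was lost without replicate 3 or 4 (limma adjusted p = 0.258 and 0.167). Nr2e3 was not analysed here.

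The promoters of 4 of these genes are shown because they hold letters that NRL, CRX or ROR proteins are known to read and belong to genes that rose (Pde6b and Cnga1) or fell (Opn1sw and Gnat2). They were chosen for holding a match, and each runs 5′ to 3′ along the gene's strand from 250 bases before to 50 after the start, from RefSeq on build GRCm38.p6. Capitals mark TGCTGA (part of the NRL response element), TAATCC (CRX) or AGGTCA (an element of ROR and other nuclear receptors), searched on both strands.
Pde6b, chr5:108388123-108388422, plus strand: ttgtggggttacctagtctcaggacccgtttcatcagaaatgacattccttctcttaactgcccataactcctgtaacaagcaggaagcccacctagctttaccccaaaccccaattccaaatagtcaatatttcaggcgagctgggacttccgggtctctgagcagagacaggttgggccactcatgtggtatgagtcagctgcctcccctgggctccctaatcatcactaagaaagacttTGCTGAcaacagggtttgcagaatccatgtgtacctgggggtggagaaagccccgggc
Cnga1, chr5:72642703-72643002, minus strand: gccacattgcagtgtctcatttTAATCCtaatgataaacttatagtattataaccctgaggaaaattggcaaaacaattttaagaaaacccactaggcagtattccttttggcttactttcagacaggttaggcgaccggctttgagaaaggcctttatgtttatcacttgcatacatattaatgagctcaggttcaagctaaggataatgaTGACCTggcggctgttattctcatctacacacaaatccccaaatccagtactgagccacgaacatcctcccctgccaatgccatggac
Opn1sw, chr6:29380464-29380763, minus strand: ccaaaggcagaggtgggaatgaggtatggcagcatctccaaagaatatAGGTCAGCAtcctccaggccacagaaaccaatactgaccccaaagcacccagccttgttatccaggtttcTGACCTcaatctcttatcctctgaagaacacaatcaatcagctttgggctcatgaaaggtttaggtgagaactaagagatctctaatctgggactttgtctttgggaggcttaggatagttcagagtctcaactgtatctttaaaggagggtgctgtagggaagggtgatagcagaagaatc
Gnat2, chr3:108092816-108093115, plus strand: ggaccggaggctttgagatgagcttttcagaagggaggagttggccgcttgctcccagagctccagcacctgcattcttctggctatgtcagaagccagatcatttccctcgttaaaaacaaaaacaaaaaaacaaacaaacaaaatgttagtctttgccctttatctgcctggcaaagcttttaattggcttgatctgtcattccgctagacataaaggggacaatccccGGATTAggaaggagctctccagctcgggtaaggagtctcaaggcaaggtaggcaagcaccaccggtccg
Pde6b holds TGCTGA from 8 bases before the start, and Cnga1 holds TAATCC from 228 bases before it and AGGTCA on the opposite strand from 38 bases before it. Opn1sw holds AGGTCA from 202 and, on the opposite strand, from 132 bases before the start, and its TGCTGA on the opposite strand, from 199 bases before the start, overlaps the first of these. Gnat2 holds TAATCC on the opposite strand from 19 bases before the start. The promoters of Slc24a1, Opn1mw, Arr3, Pde6h, Nrl and Kcne2 were searched in the same way and held no match. Of 14452 measured genes matched to a promoter by symbol, 17.2% hold TGCTGA, 6.03% TAATCC and 13.9% AGGTCA. Among the 47 genes higher at least 2-fold, 32 matched, and the shares were 25%, 15.6% and 18.8%. Among the 211 lower genes, 168 matched, with shares of 19.0%, 11.9% and 14.3%. A match is a stretch of letters and was not tested as a binding site.

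The spread between the transgenic mice was the widest of the 8 groups. An SD of at least 1 was found for 122 genes among the transgenic mice, against 72 in P28 Rorb-/- and 22 to 59 in the 6 remaining groups. At an SD of at least 0.5 the count was 588, against 134 to 308 elsewhere, and the median SD over all genes was 0.151, against 0.112 to 0.131. When each transgenic mouse was left out in turn, 72 to 157 genes had an SD of at least 1, with the lowest count without replicate 3 and the highest without replicate 4. The widest of the named genes were H2-D1 (SD 2.18), Tmem267 (2.03), Pdzph1 (1.60), Crb1 (1.59), Fabp7 (1.59) and Baiap2l1 (1.59). Pde6b (1.54), Nxnl2 (1.54), Abca13 (1.53) and Pde6a (1.52) followed.

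**Figure D3:**
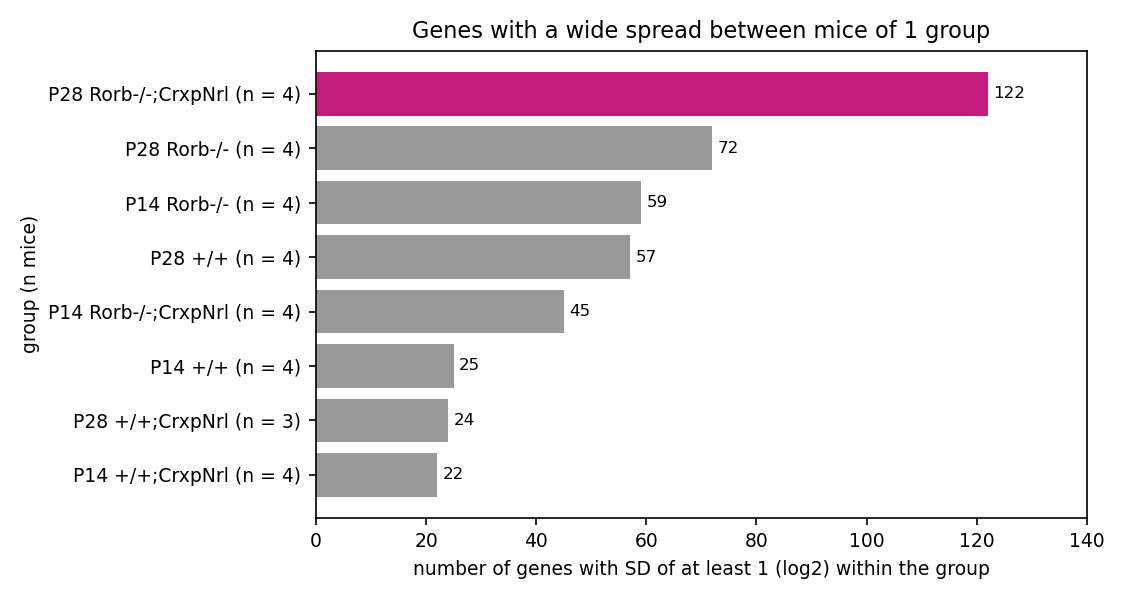
Number of genes whose SD between mice of 1 group was at least 1 (log2), for the 8 groups, with the number of mice in brackets. The transgenic P28 Rorb-/- group has 122 such genes and the next group, P28 Rorb-/-, has 72.

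Most wide genes shared an order of the mice. Without 4 sex-linked genes, 118 genes had an SD of at least 1. Replicate 1 was the highest mouse for 79, replicate 2 for 20, replicate 3 for 14 and replicate 4 for 5. Replicate 3 was the lowest for 89, replicate 2 for 12, replicate 1 for 9 and replicate 4 for 8. Of these 118 genes, 34 belonged to the 94 genes of the photoreceptor lists. Of all 122 genes, 23 also had an SD of at least 1 in the non-transgenic group, and the 4 sex-linked genes were among these 23. Crb1, a cell polarity protein of photoreceptors and Müller glia, read 10.35, 9.72, 6.88 and 8.03, and Nxnl2, a thioredoxin-like photoreceptor protein, read 10.14, 9.83, 6.90 and 8.0. The other probe set of Crb1 differed by 0.12 between the groups, against -1.61, and that of Nxnl2 by -0.19, against -0.60. Abca13, a lipid transporter, read 8.11, 8.64, 5.31 and 6.41 against 4.93 to 5.41 without the transgene. Agtr1a, an angiotensin II receptor, read 6.67, 6.74, 4.40 and 4.44 against 4.12 to 4.37, so that only replicates 1 and 2 stood clearly above the floor of the arrays. These 2 genes differed by 1.91 ± 0.53 and 1.31 ± 0.35.

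Some wide genes followed another order. The 4 wide genes of the lens list, Cryaa, Cryba1, Crybb2 and Crygd, were lowest in replicate 2. Their SDs were 1.03 to 1.125 in the transgenic and 3.22 to 4.32 in the non-transgenic mice, so they are part of both the 122 and the 72 wide genes. Tmem267 read 3.63, 8.21, 5.71 and 7.43, with replicate 1 lowest, and Baiap2l1 read 4.86, 5.00, 4.72 and 8.02, with replicate 4 alone high. The H2-D1 probe set read 5.6, 6.0, 10.19 and 5.95, with replicate 3 alone at the level of the non-transgenic mice (9.87 to 10.52). H2-D1 encodes a polymorphic class I histocompatibility antigen, and another of its 9 probe sets differed by 2.39 in the opposite direction, so its direction is not settled. Xist and Y-linked signals put 2 females (replicates 2 and 3) and 2 males in each P28 Rorb-/- group, so the order of the mice in rod genes did not follow sex. The 3′ minus 5′ difference of the Gapdh control probe sets was -0.24 to 0.04 in the transgenic mice and -0.19 to -0.05 in the non-transgenic ones. For actin it was 0.73 to 1.07 and 0.79 to 0.96. Litter, dissection and hybridisation day are not in the labels, and their part in the spread was not tested.

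Averages over lists showed an order of the mice in rod genes that differed from that in cone phototransduction genes, where replicate 4 had the lowest mean. The mean of the 13 rod phototransduction genes was 11.63, 11.16, 9.26 and 10.005 in transgenic replicates 1 to 4, against 9.90 to 10.13 in non-transgenic and 12.42 to 12.58 in +/+ mice. Replicates 1 and 2 lay above the non-transgenic range, replicate 4 within it and replicate 3 below it. Replicate 1 was the highest mouse for 12 of the 13 genes and replicate 3 the lowest for 12. The range of this mean over the mice was 2.37 in the transgenic group, 0.841 in P14 Rorb-/-;CrxpNrl, 1.05 in P14 Rorb-/- and 0.23 in P28 Rorb-/- mice. For the 11 other rod-enriched genes the transgenic range was 2.10, and the non-transgenic range was 0.262. Counted gene by gene against the non-transgenic mean, replicates 1 to 4 had 103, 148, 236 and 211 genes at least 2-fold higher. They had 185, 224, 418 and 359 genes at least 2-fold lower, so replicates 3 and 4 departed further from the non-transgenic group over all genes than replicates 1 and 2.

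**Figure D4:**
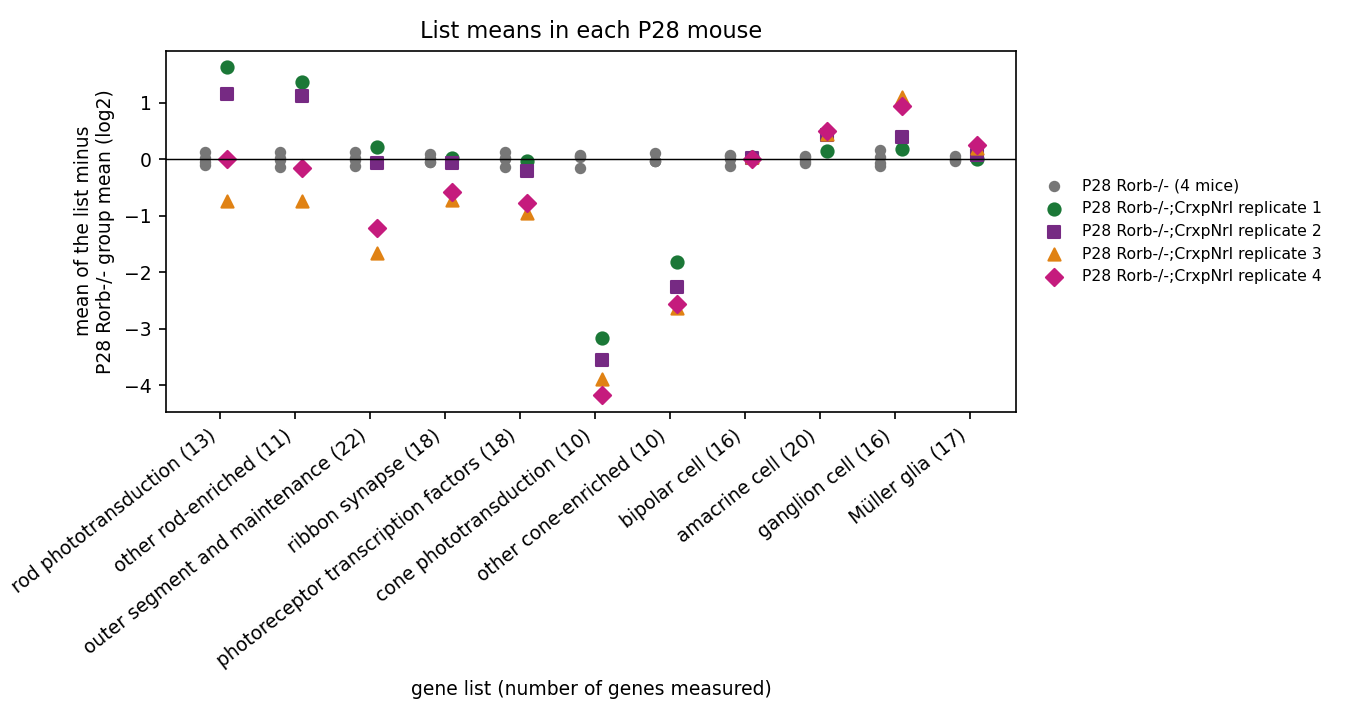
Mean of each gene list in each P28 Rorb-/- mouse, minus the mean of the 4 non-transgenic mice (log2): grey points are non-transgenic and coloured symbols are the 4 transgenic replicates, with the number of genes measured in brackets. The transgenic mice spread over 2.37 for rod phototransduction, lie together well below 0 for cone genes, and lie above 0 for ganglion cell genes.

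Of 22 measured genes of the outer segment and of photoreceptor maintenance, 11 were lower and 0 higher (median -0.57), and for 6 the groups did not overlap. Among the 11 that did not pass, Impg1, a matrix protein around photoreceptors, had a difference of 0.60 ± 0.47 and Fscn2, an actin bundling protein, of 0.38 ± 0.22. Rp1l1, a microtubule protein of the photoreceptor axoneme, read 9.41, 9.29, 6.53 and 7.49 against 9.62 to 10.01 and fell by 1.64 ± 0.34 (adjusted p = 0.000694). Tulp1, which serves transport to the outer segment, read 12.28, 11.84, 9.90 and 10.38 against 12.42 to 12.80 and fell by 1.51 ± 0.28. Aipl1, a chaperone of the phosphodiesterase, fell by 1.45 ± 0.29, and Mak, a kinase of the photoreceptor cilium, by 1.37 ± 0.30. In all 4 genes replicates 1 and 2 lay just under the non-transgenic mice and replicates 3 and 4 well under them. The list mean was 9.95, 9.67, 8.08 and 8.52 in the transgenic mice against 9.62 to 9.86, so that replicate 1 lay above and replicate 2 within the non-transgenic range. With only the 8 compared arrays in the fit, 1 of the 22 genes was lower and 0 higher. Prph2, a disc rim protein, had values of 11.25 in non-transgenic replicate 3 and 5.07 to 5.59 in the other non-transgenic mice, and its difference of -2.13 ± 1.29 did not pass (adjusted p = 0.29). Rbp3, the retinoid-binding protein between photoreceptors and pigment epithelium, was the 1 of 11 retinoid cycle genes called, with a fall of 1.47 ± 0.25.

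Among 18 photoreceptor transcription factors, 11 were lower and 1, Nrl, was higher (median -0.53). Crx read 12.06, 12.09, 12.12 and 12.10 without the transgene and 11.52, 11.58, 10.28 and 10.54 with it. It fell by 1.11 ± 0.16 (adjusted p = 1.36e-05), with no overlap and with replicates 3 and 4 lowest. Prdm1, which favours photoreceptor over bipolar fate, read 7.48, 7.40, 6.02 and 5.96 against 8.21 to 8.79 and fell by 1.83 ± 0.24. The cone-associated factors fell with less spread, Sall3 by 1.71 ± 0.12, the thyroid hormone receptor Thrb by 1.05 ± 0.19 and the retinoid receptor Rxrg by 1.04 ± 0.13. Mef2c, a rod-enriched factor, read 8.18, 8.04, 5.93 and 6.73 against 6.12 to 6.71 (0.70 ± 0.33, adjusted p = 0.152). The 5 probe sets of Mef2c differed by -0.11 to 1.10. The mean of Otx2 differed by 0.00, and Neurod1 fell by 0.55 ± 0.15. Samd11, a rod-enriched protein with a sterile alpha motif, was outside the list and among the largest rises, with 9.78, 10.04, 7.60 and 8.58 against 7.16 to 7.53 (1.68 ± 0.29, adjusted p = 9.09e-05). The other probe set of Samd11 differed by 0.13. Glb1l3, a galactosidase-like gene, read 7.82, 7.46, 5.39 and 6.32 against 4.34 to 5.33 and rose by 1.90 ± 0.51. In both, replicate 3 lay only just above the highest non-transgenic mouse.

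Ribbon synapse genes had 8 lower and 3 higher of 18 measured (median -0.33). Egflam, or pikachurin, which links photoreceptor terminals to bipolar dendrites, fell by 1.62 ± 0.27. The mean of Cplx4, a complexin, fell by 0.92 ± 0.25 and that of Kcnv2, a potassium channel subunit of photoreceptors, by 0.89 ± 0.29. In these 2 genes the mice disagreed. Cplx4 read 11.495, 10.76, 9.26 and 9.75 against a non-transgenic mean of 11.24, and Kcnv2 read 8.72, 8.05, 6.16 and 7.20 against 8.43. Both calls were lost without replicate 3 (limma adjusted p = 0.061 and 0.221) or replicate 4 (0.053 and 0.105). Lrit1, a leucine-rich repeat protein of photoreceptor synapses, fell by 0.76 ± 0.12 with no overlap. The 3 higher genes, Rims1, Bsn and Pclo, encode active zone scaffolds that other neurons use as well.

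In the ganglion cell list, 14 of 16 measured genes were higher and 1 lower, with a median of 0.72, and for 7 of the higher genes the groups did not overlap. Pou4f1, a ganglion cell transcription factor, read 6.82, 7.72, 8.22 and 8.31 against 6.20 to 7.30 and rose by 1.0 ± 0.26. Nefm, a neurofilament subunit, read 10.51, 10.75, 11.66 and 11.34 against 10.09 to 10.26 and rose by 0.86 ± 0.16. The list mean was 8.49, 8.71, 9.41 and 9.26 in transgenic replicates 1 to 4 against 8.20 to 8.47, so that all 4 lay above the non-transgenic mice and replicate 3, the lowest in rod genes, was the highest. Replicate 3 was the highest mouse for 14 of the 16 genes. Without replicate 3, 9 genes were higher, and with only the 8 compared arrays in the fit 6 were higher and 0 lower. Amacrine cell genes had 6 higher and 0 lower of 20. Npy, a neuropeptide of amacrine cells, read 9.61, 9.91, 9.87 and 9.84 against 8.01 to 8.86 and rose by 1.34 ± 0.17 (adjusted p = 1.97e-06), with the transgenic mice within 0.30 of each other. Tac1, the precursor of substance P, rose by 1.14 ± 0.12, Slc32a1, the vesicular transporter of GABA and glycine, by 0.90 ± 0.13, and Gad2, a GABA-synthesising enzyme, by 0.78 ± 0.10. The other probe set of Tac1 differed by -0.04, and the lowest of the 4 probe sets of Slc32a1 by -0.05.

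Bipolar cell genes had 5 higher and 3 lower of 16. Car8, a carbonic anhydrase-related protein, fell by 1.78 ± 0.17 and Cabp5, a calcium-binding protein of bipolar cells, by 0.88 ± 0.12, both with no overlap. Vsx1, a transcription factor of cone bipolar cells, rose by 0.66 ± 0.13, and nyctalopin (Nyx), a protein of the ON bipolar dendrite, by 0.61 ± 0.12. Of 8 horizontal cell genes, 2 were higher and 1 lower, and calbindin (Calb1) rose by 0.63 ± 0.15 while Lhx1 fell by 0.63 ± 0.17. Other probe sets differed by as little as 0.0033 for Calb1 and by -0.16 for Lhx1.

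Genes of stress and gliosis moved in both directions, 4 higher and 3 lower of 18. Gfap, the intermediate filament of reactive glia, read 8.58, 9.17, 7.79 and 9.16 against 7.01 to 7.49 and rose by 1.43 ± 0.23 (adjusted p = 4.87e-05). Osmr, the oncostatin M receptor, rose by 1.03 ± 0.21. Socs3, an inhibitor of cytokine signalling, read 6.41, 7.13, 6.01 and 6.29 against 9.11 to 9.77 and fell by 3.03 ± 0.24 (adjusted p = 2.96e-10), to near the +/+ mean of 5.78. Ednrb, an endothelin receptor, fell by 1.53 ± 0.22. Egr1, an immediate early gene, fell by 1.28 ± 0.44 (adjusted p = 0.0403), although non-transgenic replicate 1 at 9.43 lay under the other 3 at 11.15 to 11.49. The Egr1 call was lost without transgenic replicate 2, 3 or 4 (limma adjusted p = 0.0501, 0.121 and 0.080). Müller glia genes had 3 higher and 1 lower of 17, among them Sox9 with 0.45 ± 0.12 and Vim with 0.40 ± 0.11. The lowest of the 3 probe sets differed by 0.06 for Sox9 and by 0.26 for Vim. Apoptosis genes had 4 higher and 0 lower of 13, with Bcl2, which opposes cell death, up by 0.64 ± 0.09 and Bid, which promotes it, by 0.52 ± 0.17. The lowest differences among their probe sets were 0.26 for Bcl2 and 0.0038 for Bid.

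Vessel genes had 3 higher and 0 lower of 13, namely the receptors Kdr (0.60 ± 0.12) and Flt1 (0.56 ± 0.12) and the adhesion protein Esam (0.49 ± 0.12). The median of the list was 0.15, and among members not called Pecam1 differed by 0.05, Cdh5 by -0.03, Cldn5 by -0.19 and Tek by -0.24. Ccn2, a secreted matrix protein, read 9.16, 9.82, 8.99 and 10.19 against 7.25 to 8.61 and rose by 1.62 ± 0.29, and Col25a1, a transmembrane collagen, rose by 1.28 ± 0.15, with its other probe set at 0.16. Ecel1, a peptidase of neurons, rose by 1.43 ± 0.19, with replicate 3 highest at 8.52, and C1ql1, a secreted synaptic protein, by 1.38 ± 0.25. Microglia genes had 1 higher (Csf1r, 0.41 ± 0.11) and 1 lower of 17. Interferon-stimulated genes had 1 higher (Ifit2, 0.49 ± 0.14) of 16, and cell cycle genes 1 higher (Mcm5, 0.48 ± 0.13) and 1 lower (Pcna, -0.33 ± 0.08) of 14. The lowest of the 3 probe sets of Mcm5 differed by -0.08, and with probe sets averaged per gene 0 cell cycle genes were higher.

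Genes listed as markers of tissues next to the retina differed in signal between the 8 samples, and whether such tissue was present was not tested. The mean of 14 lens genes was 10.93, 10.82, 7.42 and 5.05 in the non-transgenic mice and 7.72, 6.64, 8.14 and 7.90 in the transgenic mice, with 0 genes called. The mean of 14 pigment epithelium and melanocyte genes was 6.87, 7.22, 6.36 and 5.78 without and 6.53, 6.68, 6.69 and 7.47 with the transgene, and 1 gene, Pmel, was called (0.93 ± 0.28). Transgenic replicate 4 was the highest mouse for 12 of these 14 genes. The part of this tissue in the differences above was not tested. Red blood cell genes lay at a list mean of 3.59 to 3.98 in all 8 mice, under the lower quartile of the arrays.

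The same contrast at P14, from 8 other mice, called 165 genes at least 2-fold (0.907%), 48 higher and 117 lower. Of the 117 lower at P14, 87 were among the 211 lower at P28 (74.4% and 41.2% of the 2 lists). Of the 48 higher at P14, 18 were among the 47 higher at P28 (37.5% and 38.3%). At any fold 2.05% of all genes were higher and 3.25% lower at P14. For rod phototransduction, 6 genes were higher and 0 lower at P14 (median 1.0), against 5 and 3 at P28, and the change between ages was called for 0 of the 13 genes. Pde6b differed by 3.34 ± 0.54 at P14 and 2.18 ± 0.54 at P28, and Gnat1 by 2.73 ± 0.51 and 1.31 ± 0.51. Pde6g differed by 0.24 ± 0.28 at P14 and by -0.86 ± 0.28 at P28. For cone phototransduction, 10 of 10 genes were lower at P14 (median -3.38), and the fall was larger at P28 for Cngb3 (by 1.26 ± 0.31) and Gngt2 (by 1.17 ± 0.30).

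**Figure D5:**
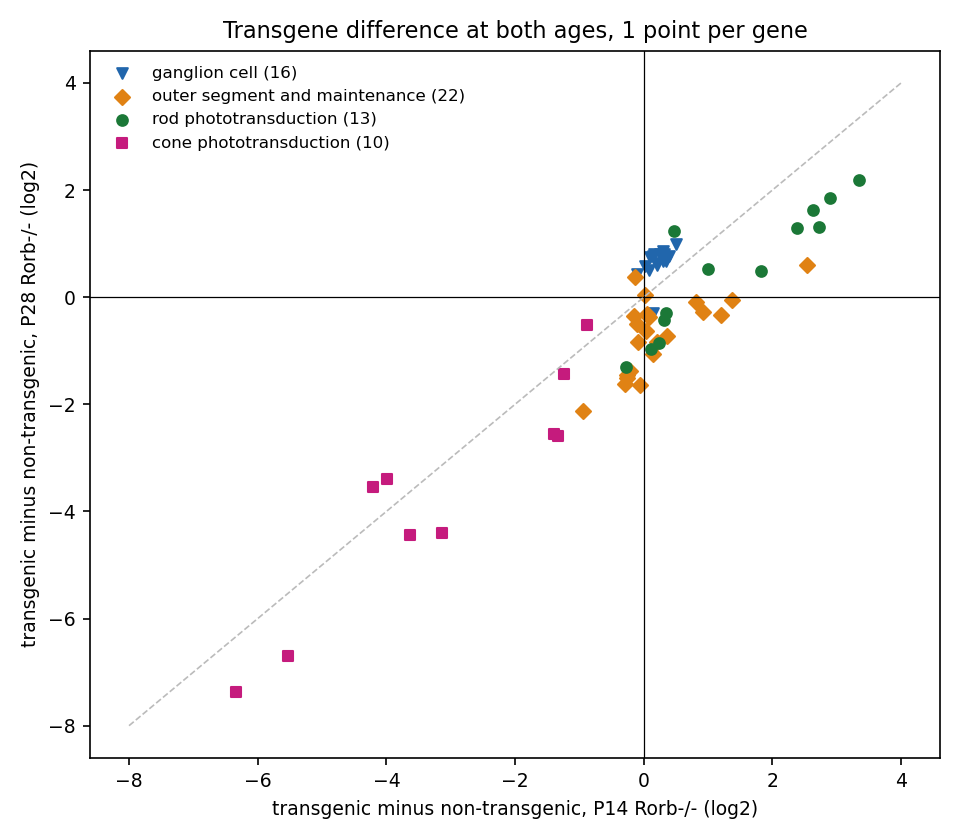
Transgene difference (log2) at P14 on the horizontal axis and at P28 on the vertical axis, both in Rorb-/- retinas, 1 point per gene of 4 lists, with the number of genes in brackets. The dashed line marks equal differences. Most rod genes lie below the line, as Pde6b at 3.34 and 2.18, cone genes lie low at both ages, and the median of the ganglion cell genes is 0.20 at P14 and 0.72 at P28, with the change between ages called for 0 of the 16.

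Over all genes, 270 (1.48%) had a transgene difference that changed between ages, 148 (0.813%) in the higher and 122 (0.671%) in the lower direction at P28. This count fell to 13 with only the 16 arrays of the 4 groups in the fit. Tph1 had the largest change in the lower direction, from -0.58 ± 0.23 at P14 to -3.58 ± 0.23 at P28 (adjusted p of the change = 7.89e-06). Otop3 went from -0.70 to -3.22, Crxos from -1.02 to -3.38 and Myocd, a cofactor of serum response factor, from -0.59 to -2.92 (-1.31 at P28 in its other probe set). Esrrb, an orphan nuclear receptor that maintains rods, had a difference of 2.34 ± 0.40 at P14 that was 0.11 ± 0.40 at P28 (adjusted p of the change = 0.0427). At P28 its 4 transgenic values were 8.92, 8.56, 6.49 and 6.69 against 6.70 to 8.19 without the transgene. In the higher direction, Inhbb, an inhibin subunit, went from -1.74 to 0.27, Sst, somatostatin, from -0.15 to 1.24, Npy from 0.01 to 1.34 and Rasgrf1, a Ras activator, from -0.37 to 0.94. Ifi44l went from -0.66 to 1.25 (0.15 at P28 in the lowest of its 3 probe sets), with non-transgenic P28 mice between 2.96 and 4.74. Crx differed by -0.10 ± 0.16 at P14 and Prdm1 by -0.25 ± 0.24, and both changes were called (adjusted p = 0.0278 and 0.0185).

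In +/+ retinas at P28, the same transgene changed 21 genes at least 2-fold (0.115%), all lower, and 20 of these were among the 211 lower in Rorb-/- (95.2% and 9.48% of the 2 lists). Rod phototransduction genes were not called in +/+ in either direction (median 0.01), from a level of 12.42 to 12.58. The cone list had 9 of 10 genes lower in +/+ as well, against 0.198% of all genes lower and 0.022% higher at any fold. Opn1mw differed by -5.46 ± 0.27 in +/+ and -7.37 ± 0.25 in Rorb-/- (adjusted p of the difference between genotypes = 0.00254). Opn1sw differed by -7.35 ± 0.60 and -6.71 ± 0.56 (adjusted p = 0.754). Kcne2 differed by -1.91 ± 0.11 and -3.73 ± 0.10. The transgene difference itself differed between genotypes for 996 genes (5.47%), 537 (2.95%) in the higher and 459 (2.52%) in the lower direction in Rorb-/-. The largest were Slco1a5 (0.12 in +/+ and -4.06 in Rorb-/-), Tph1 (0.13 and -3.58), Poteg (0.15 and -3.32), Fabp7 (-0.66 and -3.90) and Myocd (-0.04 and -2.92). Their means in P28 +/+ mice were 3.19 to 5.39, under the median of the arrays. In the higher direction, Gbp2b, a guanylate-binding protein, differed by -0.64 in +/+ and 2.20 in Rorb-/-, where non-transgenic replicate 1 (7.17) stood apart from the other 3 (3.46 to 3.56). Samd11 differed by -0.07 and 1.68, Calcb by -0.09 and 1.42 and Tes by -0.42 and 1.03. For Arr3 the direction turned with the choice of probe set, from 2.38 to -1.26.

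Genes that respond to the loss of Rorb were taken from P14 mice, which share no sample with the P28 groups. Of 485 genes (2.67%) at least 2-fold higher in P14 Rorb-/- than in P14 +/+ mice, 105 were lower and 4 higher with the transgene at P28. Those 105 were 21.6% of the 485 and 49.8% of the 211 lower genes. Of 467 genes (2.57%) lower in P14 Rorb-/- mice, 24 were higher and 6 lower with the transgene at P28, and the 24 were 5.14% of the 467 and 51.1% of the 47 higher genes. The median P28 transgene difference was -0.03 over the 485 genes and 0.20 over the 467.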

How the data were processed

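Total RNA from 31 mouse retina samples was hybridised to Affymetrix arrays, 1 mouse per array. The authors deposited log2 signals from RMA, per the submitters' processing notes, and its version is not given in the sources used here. Of 45101 probe sets, 34958 had 1 gene symbol in the platform annotation, 932 several and 9211 none. Without control probe sets, 34945 gave 18193 genes, each represented by its probe set with the highest mean. Differences came from limma 3.58.1 (R 4.3.3) with a trended prior, 1 mean per group and all 31 arrays, with Benjamini-Hochberg adjustment over all genes. The method was tested on simulated data with changes of 1.5 and 2.5 and with independent noise of the same SD in every group. There it recovered 100% of 200 altered genes in the P28 contrast. The wider spread of the P28 transgenic mice was not simulated, so recovery under that spread was not tested.

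The comparison, the 23 gene lists and the tests were chosen with earlier results of these data known. Genes named are Nrl and Rorb, the 10 largest rises and falls with no overlap, the 5 largest differences each way between ages and genotypes, the 10 widest SDs, and the largest differences of each list. Sex-linked genes and unnamed transcripts were left out. Further genes counted as list members are named where a count is small. Replicate numbers recur in each group, and the labels do not say whether they pair mice. Same-numbered P28 mice correlated by 0.154, 0.103, 0.13 and 0.055 in their deviations. These were low, but each was the highest value of its non-transgenic mouse. The mice were not paired in the main fit. P-values and SEs rest on 1 estimate of the spread between mice per gene, pooled over all 8 groups. This estimate does not follow the wider spread of the P28 transgenic mice. In the rod phototransduction list their median SD was 1.125, against 0.213 in P28 Rorb-/- mice.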

Additional observations from a re-analysis of the deposited data

Results flagged for a closer look

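In 10 of 234 sets of 4 mice (117 genes in 2 groups), 1 mouse stood apart from the other 3 by Dixon's criterion, which chance alone passes in about 1 of 20 sets. Among transgenic mice these were replicate 1 for Tph1 (4.65) and Prph2 (5.87), replicate 3 for H2-D1 (10.19) and replicate 4 for Baiap2l1 (8.02). Among non-transgenic mice they were replicate 1 for Gbp2b (7.17) and Egr1 (9.43), replicate 2 for Rpgrip1 (12.43), replicate 3 for Prph2 (11.25) and replicate 4 for Baiap2l1 (6.29) and Thy1 (9.95).

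The 117 genes include those picked for the largest differences between ages or genotypes, so both counts below were partly set by that choice. The transgene difference changed between P14 and P28 (limma interaction, adjusted p under 0.05) for 25 of the 117 genes, against 1.48% of all genes. It was lower at P28 for Tph1 (-3.00), Otop3 (-2.52), Crxos (-2.36), Myocd (-2.33), Esrrb (-2.23), Prdm1 (-1.59), Ednrb (-1.5), Cngb3 (-1.26), Gngt2 (-1.17), Kcne2 (-1.05), Crx (-1.01), Car8 (-0.96) and Lrit1 (-0.79), each value being the P28 minus the P14 difference on the log2 scale. It was higher at P28 for Inhbb (2.01), Ifi44l (1.91), Sst (1.39), Npy (1.34), Rasgrf1 (1.31), Col25a1 (1.30), Ecel1 (1.14), Tac1 (0.89), Gad2 (0.76), Slc32a1 (0.74), Cabp5 (0.74) and Bcl2 (0.58).

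The transgene difference at P28 was unlike in Rorb-/- and +/+ retinas for 43 of the 117 genes, against 5.47% of all genes. Given as the Rorb-/- minus the +/+ difference, it was lower for Slco1a5 (-4.17), Tph1 (-3.71), Poteg (-3.47), Fabp7 (-3.24), Myocd (-2.88), Crxos (-2.65), Clca1 (-2.07), Socs3 (-2.04), Gpat3 (-1.95), Opn1mw (-1.91), Prdm1 (-1.88), Kcne2 (-1.82), Rp1l1 (-1.77), Rorb (-1.70), Egflam (-1.64), Car8 (-1.56), Rbp3 (-1.5), Gngt2 (-1.49), Lhx1 (-1.47), Tulp1 (-1.45), Ednrb (-1.24), Sall3 (-1.24), Crx (-1.05), Lrit1 (-0.84), Mef2d (-0.70) and Cabp5 (-0.62). It was higher for Gbp2b (2.84), Arr3 (2.38), Samd11 (1.75), Calcb (1.51), Tes (1.45), Sst (1.34), Tac1 (1.29), Npy (1.29), Gfap (1.26), Ecel1 (1.23), Col25a1 (1.13), Calb1 (1.0), Vsx1 (0.85), Kdr (0.70), Slc32a1 (0.68), Gad2 (0.60) and Bcl2 (0.50). The value for Arr3 turned with the choice of probe set.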

How the results depend on the processing

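Of 97 called genes among 117 named, 56 kept their call in every alternative tried for the P28 contrast, and 38 lost it when the fit held only the compared groups. Without a fold requirement the 258 changed genes became 3493. The 47 higher genes became 30 with probe sets averaged per gene, 31 with only the compared groups and 46 to 84 when each mouse was left out in turn, the most without transgenic replicate 1. The 3493 genes at any fold became 1580 with only the compared groups. Differences between ages went from 270 to 1476 with array weights, 13 with only the compared groups, and 81 to 1523 with each mouse left out, the lowest without P28 transgenic replicate 4 and the highest without replicate 1. P28 transgenic replicates 2 and 3, P28 Rorb-/- replicates 3 and 4, P14 Rorb-/- replicates 2 and 4 and P14 transgenic replicates 1, 2 and 4 also moved it by over 1.5 times. With the replicate block they numbered 671, and the only other counts moved by over 1.5 times under that block were the transcription factors called higher and the retinoid cycle genes called lower, each from 1 to 2, while Mef2c (adjusted p = 0.0443) and Slc1a3 (0.000278) became called. Under that block the 3493 genes at any fold became 4276 and the 996 differences between genotypes became 1489. Each non-transgenic mouse correlated best with the transgenic mouse of its number, although transgenic replicate 4 correlated better with non-transgenic replicate 1 (0.0911) than with 4 (0.055). The labels do not say whether the numbers pair mice, and a factor shared by same-numbered mice was not tested. Differences between genotypes went from 996 to 2312 with array weights, 400 with only the compared groups, and 618 to 2078 with each mouse left out, at the extremes without transgenic replicates 4 and 1. Array weights were 0.332, 0.442, 0.928 and 1.42 for transgenic replicates 1 to 4. Wide genes went from 122 to 588 at an SD of at least 0.5, and from 72 to 157 with a mouse left out. The genotype difference of Arr3 turned to -1.26 (adjusted p = 0.0188) without probe sets of shared sequence. Shifting or quantile normalizing the arrays, an untrended prior and Xist as covariate left each of these counts and those of the gene lists within 1.5 times. Causes of these changes were not tested. Signals near the top or the lower quartile of the arrays limit the size of a fall.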
